A study of Mus musculus with 217 samples.

Results

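The comparison described here is that of striatum from 12-month-old LacQ140_2M mice, in which mutant huntingtin (m*Htt*) was lowered from 2 months of age, with striatum from LacQ140 mice of the same age, in which it was not. Its members were chosen by group, tissue and age alone: the 10 LacQ140_2M libraries (5 females and 5 males) and the 9 LacQ140 libraries (4 females and 5 males), which are 19 of the 57 libraries of 12-month striatum and of 217 libraries in all. LacQ140 mice carry 1 *Htt* allele with an expanded CAG repeat and *Lac* operators in its promoter, 1 normal *Htt* allele, and a *Lac* repressor transgene (LacIR) driven by a β-actin promoter, on a C57BL/6 background. The WT mice carry the LacIR transgene and no mutant allele. IPTG, a lactose analog that takes the repressor off the operators, was given from embryonic day 5. LacQ140 mice stayed on it until they were sampled, and LacQ140_2M mice received it until 2 months and were then without it for 10 months. The other 12-month groups are LacQ140_8M (IPTG until 8 months, 9 mice), LacQ140_A (never given IPTG, so that the allele was repressed from conception, 10 mice), WT + IPTG (10 mice) and WT (9 mice). Striatum of 6-month-old mice was also used, for a gene list and to compare ages. It came from 10 mice each of LacQ140, LacQ140_2M, LacQ140_A, WT + IPTG and WT. The repressor acts in the whole body and on the mutant allele alone, whose expression it lowers in part, so that lowering is not restricted to the striatum. The aim of the comparison is to measure what remains at 12 months of an early and continued lowering of m*Htt*.

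The striatum consists mostly of spiny projection neurons, GABAergic cells that receive dopamine and glutamate and that fall into a class with D1 dopamine receptors (the direct pathway) and a class with D2 receptors (the indirect pathway). Both classes read dopamine through cyclic AMP: Gs-type and Gi-type receptors act on adenylyl cyclase, protein kinase A follows, and phosphodiesterases and the phosphatase inhibitor DARPP-32 shape the signal. In Huntington's disease and its mouse models, genes that give spiny neurons their identity lose expression, those of the indirect pathway early, while genes that are normally silent in the adult striatum, among them developmental transcription factors held down by Polycomb repression, gain expression. In whole striatum, fewer cells of a type and less RNA per cell cannot be told apart.

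The 19 libraries held between 33292014 and 47893340 summed counts per library, and levels are given as CPM, counts scaled to a common library total with TMM factors. The summed level of 10 markers of spiny neurons was between 4396 and 6958 CPM in LacQ140_2M and between 4409.7 and 5518 CPM in LacQ140. No other tissue was set beside them, so these values do not test the tissue label. Of the 19, 6 libraries stood apart in the summed markers of other tissue or cell types, 4 of them most. The origin of this RNA was not tested. LacQ140_2M male 5 had 39.7 CPM in total over 12 T and NK cell genes, against 0.676 to 1.27 CPM in the rest of its group. LacQ140_2M female 4 had 479.8 CPM over 8 thalamic neuron genes (the rest of the group 57.6 to 156 CPM) and the lowest sum over 10 spiny neuron genes, 4396 CPM against 5837 to 6958 CPM. LacQ140 male 1 had 118.6 CPM over 8 hypothalamic neuron genes, against 5.54 to 10.5 CPM. LacQ140 male 2 had 520.1 CPM over 10 cortical glutamatergic neuron genes, against 191 to 236.1 CPM. The T and NK cell and the hypothalamic lists were drawn up after these libraries had been seen. The deposited 12-month table is marked as unswapped, with no account of the word in the sources used here, and libraries are given by their labels. Smaller excesses were seen in LacQ140_2M female 5, with 211.6 CPM over 10 choroid plexus and ependyma genes against 58.7 to 125.01 CPM, and in LacQ140_2M female 3, with 4.38 CPM over 6 pituitary genes against 1.85 to 2.97 CPM. All were kept. Results that rest on the first 4 are also given without them, and these fits still hold females 5 and 3.

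*Htt*, the targeted gene (ENSMUSG00000029104, chr5:34761740-34912534, plus strand), is counted over both alleles, so the levels do not separate the repressed from the normal allele. Its lowest, median and highest levels were 85.1, 101 and 119.4 CPM in LacQ140_2M and 96.7, 113 and 124 CPM in LacQ140. The groups overlapped, with 4 of 10 LacQ140_2M libraries below the lowest LacQ140 library. The log2 fold change was -0.15 ± 0.07 (adjusted p = 0.56), where ± gives 1 SE for log2 fold changes and 1 SD for levels, and total *Htt* was not called. WT + IPTG mice had 146 ± 11.2 CPM (mean ± SD, n = 10), and LacQ140_A mice 93.4 ± 15.9 CPM (n = 10). At 6 months, in separate mice, the same contrast gave -0.20 ± 0.07 (adjusted p = 0.15).

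After 10 months of lowering, 137 genes that were expressed above trace level had risen and 31 had fallen. At any level, 4 of 10 spiny neuron markers rose and 6 of 36 developmental transcription factors fell. In edgeR's quasi-likelihood test over 35386 genes with at least 1 count, 215 genes had a Benjamini-Hochberg adjusted p under 0.05 and a change of at least 20%: 165 rose (0.466% of all genes tested) and 50 fell (0.141%). Among the 14574 genes with a mean of at least 1 CPM over the 19 libraries the shares were 0.94% and 0.213%. Changes of expressed genes were small, with a median log2 fold change of 0.37 in size for the 137 risen and 0.44 for the 31 fallen. The 28 risen and 19 fallen genes under 1 CPM had medians of 2.61 and 2.31. Of these 28, 7 belong to the T and NK cell list, which was high in LacQ140_2M male 5. None of the 7 was called without the 4 libraries that stood apart. The risen genes had a median level of 12.2 CPM and the fallen genes one of 2.58 CPM. Protein-coding genes were 146 of the 165 and 43 of the 50. In 22 of the 215 genes, 14 risen and 8 fallen, no LacQ140_2M library overlapped a LacQ140 library. Over all genes tested 33 (0.0933%) had no overlap, 21 of them higher (0.0593%) and 12 lower (0.0339%) in LacQ140_2M. Without the 4 libraries that stood apart, 165 genes were called (134 risen and 31 fallen), of which 138 were among the 215. Leaving out LacQ140_2M female 5 or female 3 alone gave 196 and 194 genes. Without the 4 libraries 3 of 10 spiny neuron markers, 4 of 9 indirect pathway genes, 7 of 22 genes of the dopamine and cyclic AMP cascade, 5 of 23 potassium channel genes, 2 of 22 calcium genes and 3 of 16 clock genes rose, and 5 of 36 developmental transcription factors fell.

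**Figure D1:**
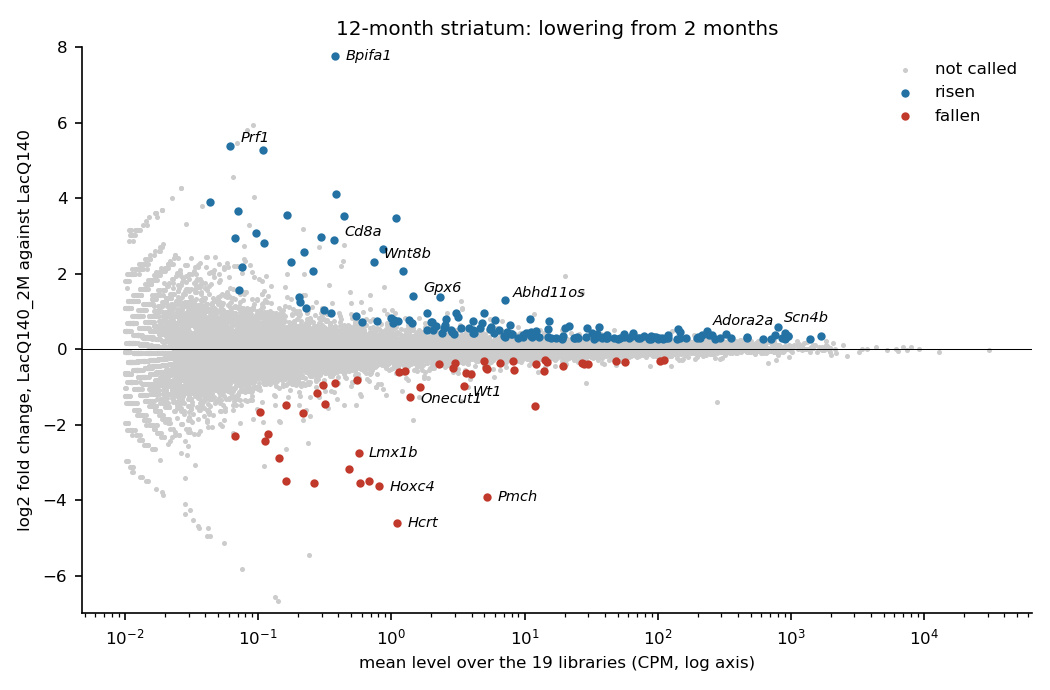
Each point is a gene with a mean level of at least 0.01 CPM, placed by its mean level over the 19 libraries (CPM, log axis) and its log2 fold change of LacQ140_2M against LacQ140; coloured points are the called genes. Most of the 165 risen genes lie close above 0 at levels of 1 CPM and more, while many of the largest changes lie under 1 CPM. Of the falls at 1 CPM and more, that of *Hcrt* was the largest, and it rests on 1 library.

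*Scn4b*, encoding the β4 subunit of voltage-gated sodium channels that is enriched in spiny neurons (ENSMUSG00000046480, chr9:45138395-45154152, plus strand), had the smallest p-value of the risen genes above 1 CPM. Its lowest, median and highest levels were 777, 969 and 1054 CPM in LacQ140_2M and 554.9, 613 and 767 CPM in LacQ140. Every LacQ140_2M library was above every LacQ140 library, and the lowest of the 10 was the library with raised thalamic markers, female 4. The log2 fold change was 0.60 ± 0.06 (adjusted p = 3.5e-10), and WT + IPTG mice had 1775 ± 146 CPM. *Adora2a*, an adenosine receptor of indirect pathway neurons (ENSMUSG00000020178, chr10:75316877-75334784, plus strand), was at 191, 283 and 308.7 CPM in LacQ140_2M and 172, 195.7 and 214 CPM in LacQ140, a log2 fold change of 0.48 ± 0.06 (adjusted p = 5.8e-07). Female 4 was the only LacQ140_2M library of *Adora2a* within the LacQ140 range. *Penk*, the enkephalin precursor of the same neurons, was at 668, 1032 and 1253 CPM in LacQ140_2M and 683, 734 and 890.3 CPM in LacQ140, a log2 fold change of 0.42 ± 0.07 (adjusted p = 0.00028). Here 9 of the 10 libraries were above the highest LacQ140 library. *Upb1*, an enzyme of pyrimidine breakdown that is in the list of indirect pathway genes, rose by 0.80 ± 0.13 (adjusted p = 4e-05) on the log2 scale, and *Gpr6*, a constitutively active receptor coupled to Gs, by 0.34 ± 0.07 (adjusted p = 0.0022).

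All 9 tested genes of the list of indirect pathway (D2) genes had a log2 fold change above 0. Their median was 0.21 against 0.00 over all genes tested. Of the 9, 4 were called as risen, against 0.466% of all genes tested, and none as fallen. In the list of direct pathway (D1) genes 9 of 10 were above 0, with a median of 0.09, and only *Pdyn* was called. *Pdyn*, the dynorphin precursor, was at 123, 179 and 212.4 CPM in LacQ140_2M and 129, 143 and 171 CPM in LacQ140, a log2 fold change of 0.28 ± 0.07 (adjusted p = 0.049). Its adjusted p lay just under the threshold, and leaving out 17 of the 19 libraries one at a time took it above. *Penk* and *Pdyn* were the 2 called of 19 tested neuropeptides and receptors, a list with 7 genes above 0 and a median of -0.05. *Drd1*, the D1 receptor, had a log2 fold change of 0.27 ± 0.08 (adjusted p = 0.092). *Drd2*, the D2 receptor, had one of 0.20 ± 0.07 (adjusted p = 0.24), and *Tac1*, the substance P precursor, one of 0.21 ± 0.07 (adjusted p = 0.25). None of these 3 was called, and the difference between the lists was not tested. Against WT + IPTG, LacQ140 mice had medians of -0.86 over the indirect and -0.12 over the direct pathway list, a contrast that shares the LacQ140 libraries with the lowering.

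**Figure D2:**
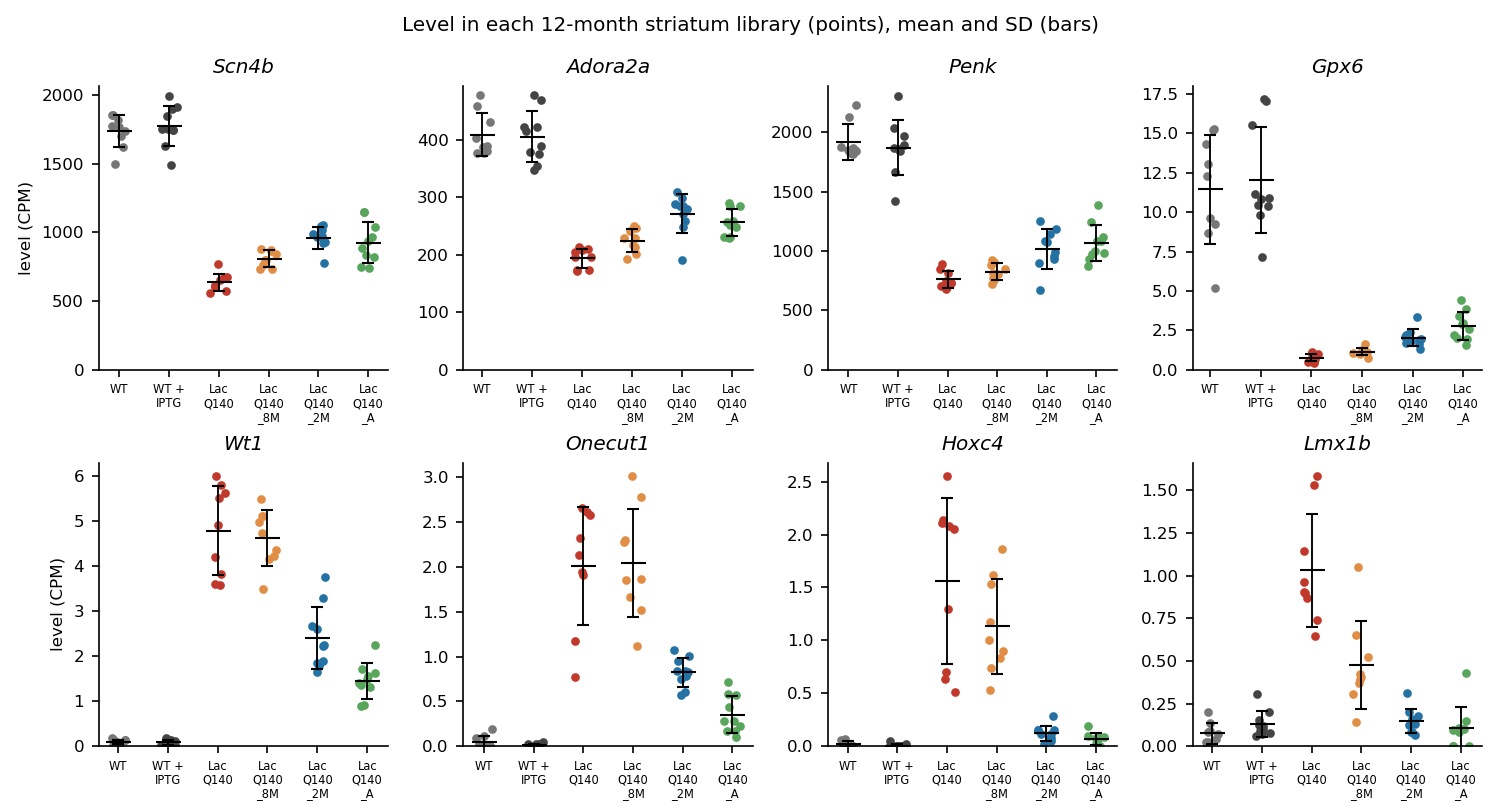
Levels in CPM of 8 genes in each library (points) of the 6 groups of 12-month striatum, with the group mean and SD (bars). *Scn4b* and *Gpx6* were higher in every LacQ140_2M than in every LacQ140 library, *Hoxc4* and *Lmx1b* lower, and *Adora2a*, *Penk*, *Onecut1* and *Wt1* overlapped between those groups.

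In the dopamine and cyclic AMP cascade 7 of 22 genes rose and none fell, with a median log2 fold change of 0.19. Of all genes with a mean of at least 1 CPM, 0.94% rose. *Adcy5*, the main adenylyl cyclase of the striatum, was at 792, 1077 and 1156 CPM in LacQ140_2M and 749, 811 and 941 CPM in LacQ140, a log2 fold change of 0.34 ± 0.06 (adjusted p = 7.1e-05). In 9 of 10 libraries it was above the highest LacQ140 library, and female 4 was the lowest. *Rgs9*, which shortens G protein signals of dopamine receptors, rose by 0.30 ± 0.06 on the log2 scale (adjusted p = 0.003), and *Rasd2*, the striatal small GTPase Rhes, by 0.28 ± 0.06 (adjusted p = 0.0025). The other called genes of the list were *Arpp19*, *Arpp21*, *Ptpn5* and *Ptpn7*. *Arpp19*, an inhibitor of protein phosphatase 2A, rose by 0.40 ± 0.07 (adjusted p = 0.00016). *Arpp21*, a phosphoprotein enriched in spiny neurons, rose by 0.29 ± 0.06 (adjusted p = 0.003). *Ptpn5*, the striatum-enriched tyrosine phosphatase, rose by 0.27 ± 0.06 (adjusted p = 0.0021) and *Ptpn7* by 0.60 ± 0.11 (adjusted p = 0.00039). Of these 7, *Rasd2*, *Ptpn5* and *Arpp21* lost the call without LacQ140_2M female 2, which leaves 4 of 22. *Rasd2* also lost it without LacQ140 male 2 or male 3, and *Ptpn5* without LacQ140 male 1, male 2 or male 4. *Ppp1r1b*, encoding DARPP-32, had a log2 fold change of 0.22 ± 0.07 (adjusted p = 0.2), and was not called. *Pde10a*, the phosphodiesterase of spiny neurons, was at 658, 846 and 986 CPM in LacQ140_2M and 548, 617 and 792 CPM in LacQ140, a log2 fold change of 0.37 ± 0.09 (adjusted p = 0.015). It was the only one of 16 phosphodiesterase genes called, and without the 4 libraries that stood apart it was not called (0.34 ± 0.10, adjusted p = 0.11). Its call also ended without LacQ140_2M male 4 or LacQ140 male 1 or female 3 alone.

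Several lists of channel and receptor genes were read as well. Of all genes with a mean of at least 1 CPM, 0.94% rose and 0.213% fell. *Scn4b* was the only one of 8 sodium channel genes called. Of 23 potassium channel genes 4 rose and none fell (median 0.10): *Kcna5* by 0.43 ± 0.08, *Kcnip2*, the auxiliary subunit of A-type channels, by 0.37 ± 0.06, *Kcnq5* by 0.27 ± 0.06 and *Kcnh4* by 0.33 ± 0.08, with adjusted p of 0.00059, 0.00012, 0.0072 and 0.0098. Of 22 genes of calcium channels and calcium signalling 3 rose and none fell (median 0.09). *Ryr1*, a calcium release channel of the endoplasmic reticulum, was at 10.1, 13.2 and 17.9 CPM in LacQ140_2M and 6.28, 7.93 and 10.4 CPM in LacQ140, a log2 fold change of 0.79 ± 0.13 (adjusted p = 4.5e-05). *Cacnb2*, an auxiliary calcium channel subunit, rose by 0.30 ± 0.07 (adjusted p = 0.016) and *Hpca*, the calcium sensor hippocalcin, by 0.28 ± 0.07 (adjusted p = 0.017). Some of these calls ended when 1 library was left out: that of *Kcnq5* for LacQ140_2M female 2 or male 4 or LacQ140 male 1, female 1 or female 3, that of *Cacnb2* for LacQ140_2M male 3 or LacQ140 male 1, female 1 or female 3, and that of *Hpca* for LacQ140_2M female 2 or LacQ140 male 2 or male 3. Single genes of other families rose too: 1 of 8 endocannabinoid genes (median 0.04) and 1 of 20 genes of GABA synthesis, transport and receptors (median 0.05) were called. *Cnr1*, the cannabinoid receptor CB1, rose by 0.37 ± 0.08 (adjusted p = 0.0031), *Gabrd*, the δ subunit of extrasynaptic GABA-A receptors, by 0.28 ± 0.05 (adjusted p = 0.00065), *Hrh3*, the histamine H3 receptor, by 0.44 ± 0.06 (adjusted p = 4.9e-06) and *Htr2a*, a serotonin receptor, by 0.60 ± 0.14 (adjusted p = 0.0093). The call of *Gabrd* ended without LacQ140_2M male 2 or LacQ140 male 4. None of 21 glutamate receptor genes was called by edgeR, 7 had an unadjusted p under 0.05, and DESeq2 called 1 as risen and 0 as fallen.

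Further genes with a small p-value or a large change were of several kinds. *Gpx6*, a glutathione peroxidase, was at 1.31, 1.91 and 3.37 CPM in LacQ140_2M and 0.459, 0.814 and 1.12 CPM in LacQ140, a log2 fold change of 1.42 ± 0.23 (adjusted p = 6.8e-05). Every LacQ140_2M library was above every LacQ140 library, and both groups were far under WT + IPTG (12.05 ± 3.35 CPM). *Ror1*, a receptor tyrosine kinase that binds Wnt5a, was at 3.03, 3.96 and 4.89 CPM in LacQ140_2M and 1.29, 2.02 and 2.95 CPM in LacQ140, a log2 fold change of 0.95 ± 0.13 (adjusted p = 1.6e-06), and in WT + IPTG at 5.36 ± 0.950 CPM. *Sec14l3* rose by 0.95 ± 0.16 (adjusted p = 0.00012) on the log2 scale. *Il2rb*, the β chain of the interleukin 2 receptor, reached 11.5 CPM in male 5, the library with T and NK cell genes, and its log2 fold change was 2.08 ± 0.40 (adjusted p = 0.00097). Without the 4 libraries it was 0.85 ± 0.18, adjusted p = 0.0043. In a fit of only the 2 groups compared *Il2rb* was not called. *Abhd11os*, a noncoding RNA, was at 5.66, 9.76 and 12.5 CPM in LacQ140_2M and 2.06, 4.09 and 6.46 CPM in LacQ140, a log2 fold change of 1.29 ± 0.16 (adjusted p = 3.5e-08). It lies beside and partly opposite a coding gene, and whether the counting used the strand is not given in the sources used here. *Hrk*, a BH3-only gene of the apoptosis pathway, rose by 0.56 ± 0.08 (adjusted p = 1.5e-06) on the log2 scale. The noncoding genes *Gm39043* and *Gm19410* rose by 0.95 ± 0.13 and 0.55 ± 0.07 (adjusted p = 1.6e-06 and 5.8e-07).

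Of 16 circadian clock genes 4 rose and none fell, with a median of 0.22. Of all genes with a mean of at least 1 CPM, 0.94% rose. *Npas2*, a partner of BMAL1 in the positive arm, rose by 0.32 ± 0.06 (adjusted p = 0.00054), and 3 genes that the clock drives or that repress it rose with it: *Nr1d1* by 0.30 ± 0.06 (adjusted p = 0.0011), *Hlf* by 0.29 ± 0.05 (adjusted p = 0.00069) and *Ciart* by 0.74 ± 0.13 (adjusted p = 0.00012). *Ciart* was at 13.6, 17.9 and 26.7 CPM in LacQ140_2M and 8.37, 11.5 and 15.03 CPM in LacQ140, with 8 of 10 LacQ140_2M libraries above the highest LacQ140 library. The hour of sampling is not given in the sources used here, and its part in these values was not tested. All 14 glucocorticoid responsive genes had a log2 fold change above 0 (median 0.23), and none was called by edgeR; 6 had an unadjusted p under 0.05, and DESeq2 called 0. *Ddit4l*, which restrains mTOR, was the only one of 9 genes with that role called, at 5.88, 8.86 and 11.2 CPM in LacQ140_2M and 5.47, 6.76 and 8.54 CPM in LacQ140, a log2 fold change of 0.39 ± 0.09 (adjusted p = 0.016). Its call ended without LacQ140_2M female 1, female 2 or male 5, and in a fit of only the 2 groups compared. In WT + IPTG it was at 31.2 ± 4.82 CPM. Of single secreted factors, *Bmp2* rose by 0.56 ± 0.08 (adjusted p = 1.6e-05), *Bmp7* by 0.48 ± 0.07 (adjusted p = 6e-06), *Rspo1* by 0.50 ± 0.09 (adjusted p = 0.00022) and *Wnt8b* by 2.30 ± 0.27 (adjusted p = 1.5e-08). *Wnt8b* was at 0.520, 1.18 and 1.80 CPM in LacQ140_2M and 0.0940, 0.209 and 0.396 CPM in LacQ140, without overlap. *Bmp2* and *Bmp7* were chosen after their values had been seen, and no list of such factors was tested.

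Several groups held no called gene in edgeR's test. None of 16 striatal transcription factors was called (median 0.07, 14 above 0), although 4 had an unadjusted p under 0.05 and DESeq2 called 0. None of 16 immediate early genes was called (median -0.04; 0 with an unadjusted p under 0.05, 0 risen and 0 fallen by DESeq2). The same held for 26 Polycomb subunits (median -0.02; 3, 0 and 0 in the same order), 22 protocadherins of the β cluster (median -0.06; 3, 0 and 0) and 16 cytosolic chaperones (median -0.08; 3, 0 and 0). In 15 genes of the region around *Htt* the median was -0.01 and 3 had an unadjusted p under 0.05, with 0 risen and 0 fallen by DESeq2. Of the marker lists, that of spiny neurons held 4 risen of 10 genes and a median of 0.25. Medians were 0.08 for 12 astrocyte, -0.04 for 12 oligodendrocyte, -0.00175 for 12 microglia and -0.03 for 12 interneuron markers, with no gene called; at an unadjusted p under 0.05 there were 2, 0, 0 and 0, and DESeq2 called 0 of the 48. The 6 blood genes had a median of 0.41 with none called by edgeR, 0 at an unadjusted p under 0.05 and 0 by DESeq2, a median of 0.72 without the 4 libraries, and their median in WT + IPTG against WT was 0.88. No gene was called in 3 other marker lists with a raised median either: thalamic neurons (0.56 over 8 genes, and 0.02 without the 4 libraries), pituitary (0.34 over 6, and 0.21), and choroid plexus and ependyma (0.24 over 10, and 0.22). At an unadjusted p under 0.05 they held 2, 1 and 3 genes, and DESeq2 called 0. The list of cortical glutamatergic neurons had a median of -0.17 over 10 genes with none called, and 0.0039 without the 4 libraries. That of hypothalamic neurons had a median of -0.30 over 8 genes with 2 called as fallen, and -0.19 with 0 called without the 4. The median of the list of spiny neurons without the 4 libraries was 0.26. The part of these cell types in the results was not tested.

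**Figure D3:**
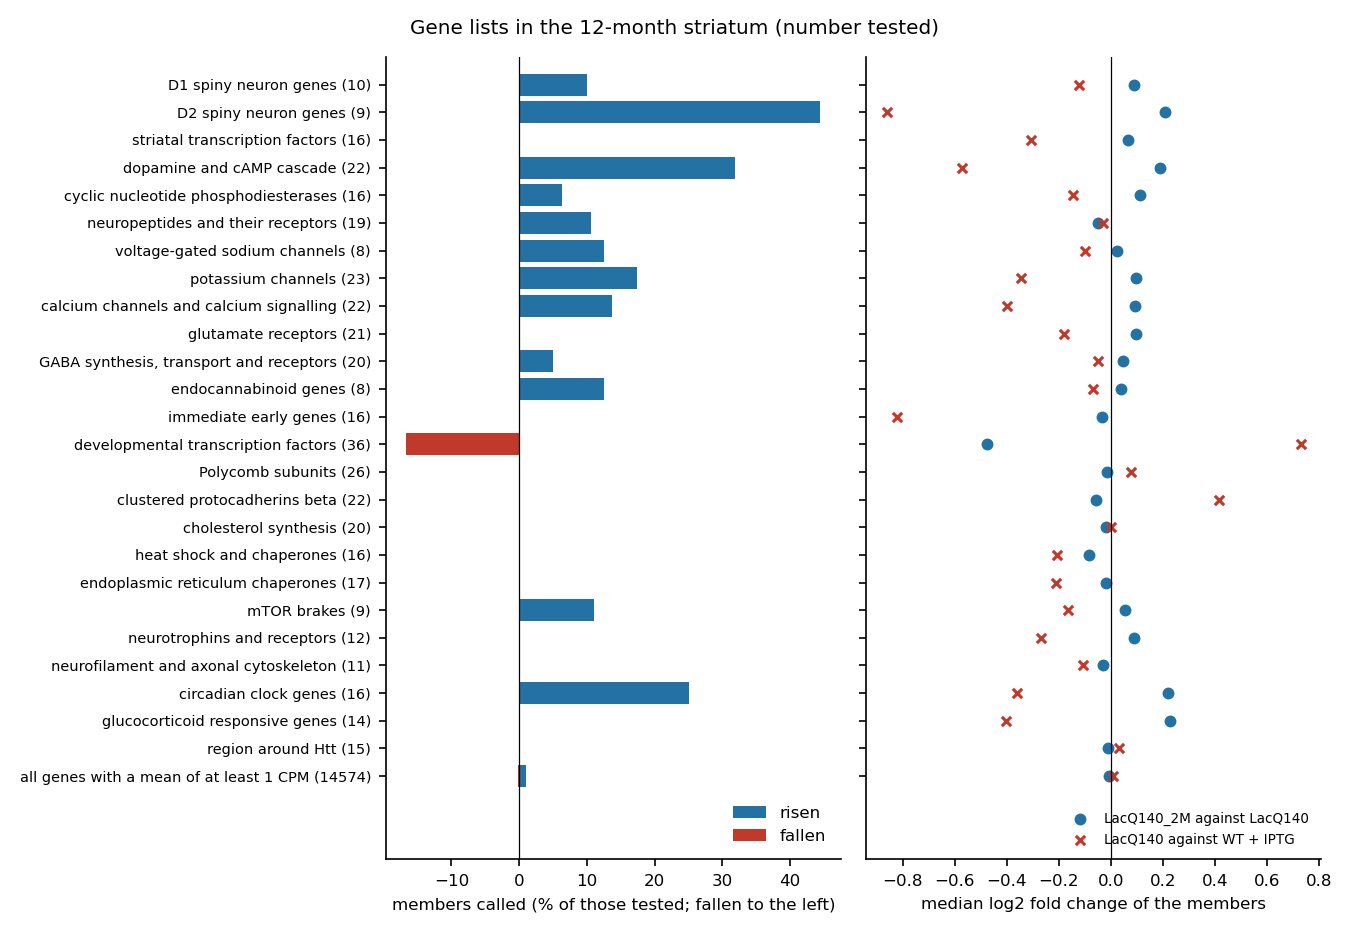
For each gene list, the share of its tested members called as risen or fallen in LacQ140_2M against LacQ140 (percent) and, beside it, its median log2 fold change in that comparison and in LacQ140 against WT + IPTG. The list of indirect pathway genes had 4 of 9 members risen, and the list of developmental transcription factors had 6 of 36 fallen. The 2 comparisons share the LacQ140 libraries.

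Transcription factors of embryonic patterning were among the genes that fell. In a list of 36 tested developmental transcription factors 6 fell and none rose, with a median log2 fold change of -0.48. Of the 36, 29 were under 1 CPM. Over all genes tested 0.141% fell. *Hoxc4* (ENSMUSG00000075394, chr15:103018934-103036852, plus strand), which patterns the neural tube behind the forebrain, was at 0.0225, 0.117 and 0.287 CPM in LacQ140_2M and 0.511, 2.05 and 2.55 CPM in LacQ140. Every LacQ140_2M library was lower than every LacQ140 library, and among the LacQ140 libraries males 1, 2 and 3 were the lowest. The log2 fold change was -3.62 ± 0.30 (adjusted p = 1.9e-15). WT + IPTG mice had 0.00714 CPM on average, which is near 0. *Hoxc5* and *Hoxc6*, its neighbours in the HoxC cluster, had log2 fold changes of -3.55 ± 0.33 and -2.25 ± 0.39 (adjusted p = 1.7e-13 and 0.0002), and the annotated spans of the 3 genes lie so close or overlap that reads may be shared. Of 7 tested HoxC genes these 3 fell and no gene was above 0. The HoxC list, *Hoxc5* and *Hoxc6* were chosen after the values had been seen.

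*Onecut1* (ENSMUSG00000043013, chr9:74861921-74891781, plus strand), a homeobox factor of early neurons, was at 0.567, 0.830 and 1.07 CPM in LacQ140_2M and 0.770, 2.13 and 2.66 CPM in LacQ140. In 3 of 10 LacQ140_2M libraries it was below the lowest LacQ140 library, which was female 1. The log2 fold change was -1.28 ± 0.19 (adjusted p = 2.8e-06). *Wt1*, a zinc finger factor of kidney and gonad development (ENSMUSG00000016458, chr2:105126529-105173616, plus strand), was at 1.65, 2.23 and 3.76 CPM in LacQ140_2M and 3.58, 4.90 and 5.99 CPM in LacQ140, a log2 fold change of -0.98 ± 0.12 (adjusted p = 1.5e-07). The groups overlapped slightly, with 9 of 10 libraries below the lowest LacQ140 library, and WT + IPTG mice had 0.0858 ± 0.0635 CPM. *Lmx1b* (ENSMUSG00000038765, chr2:33560965-33640511, minus strand), a factor of midbrain dopamine and serotonin neurons, was at 0.0678, 0.137 and 0.310 CPM in LacQ140_2M and 0.645, 0.906 and 1.58 CPM in LacQ140, a log2 fold change of -2.75 ± 0.28 (adjusted p = 7e-11). *C130021I20Rik*, a noncoding gene transcribed from the other strand beside the start of *Lmx1b*, had one of -3.17 ± 0.30 (adjusted p = 6.2e-12). Both lacked overlap between the groups, and both were chosen after their values had been seen. *Emx2*, a factor of forebrain patterning, had a log2 fold change of -0.56 ± 0.09 (adjusted p = 6.9e-05), and the antisense gene *Emx2os* one of -0.66 ± 0.11 (adjusted p = 8.9e-05); with unknown strandedness their reads cannot be told apart. Developmental regulators at trace level, chosen after their values had been seen, fell as well, *Pax2* by 2.43 ± 0.51, *Pou4f1* by 1.45 ± 0.28 and *Vgll2* by 2.89 ± 0.38 on the log2 scale (adjusted p = 0.002, 0.00059 and 3.4e-07). DESeq2 did not call *Pax2*, and called 5 of the 36 developmental transcription factors as fallen.

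To show the sequence at the start of genes that moved in either direction, 250 bases before the start site of 3 fallen and 2 risen genes are shown, from the RefSeq promoters of GRCm38.p6, each read 5′ to 3′ on the strand of its gene with every CG dinucleotide in capitals. They lie at chr15:103034145-103034394 (*Hoxc4*, plus strand), chr2:33641099-33641348 (*Lmx1b*, minus), chr9:74861671-74861920 (*Onecut1*, plus), chr9:45138374-45138623 (*Scn4b*, plus) and chr16:35154614-35154863 (*Adcy5*, plus). The RefSeq starts of *Hoxc4* and *Scn4b* lie inside the annotated span of the gene, so that the bases shown for them overlap it.
Hoxc4: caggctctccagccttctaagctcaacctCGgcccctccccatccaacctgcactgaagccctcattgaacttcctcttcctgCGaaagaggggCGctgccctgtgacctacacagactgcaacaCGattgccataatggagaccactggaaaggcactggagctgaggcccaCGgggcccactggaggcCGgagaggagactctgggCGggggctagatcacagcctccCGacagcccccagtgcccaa
Lmx1b: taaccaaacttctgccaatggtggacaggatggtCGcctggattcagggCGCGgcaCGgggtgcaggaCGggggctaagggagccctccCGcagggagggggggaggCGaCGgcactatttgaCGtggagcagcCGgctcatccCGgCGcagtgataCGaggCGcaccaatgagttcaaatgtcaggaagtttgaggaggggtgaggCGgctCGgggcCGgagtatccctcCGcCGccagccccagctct
Onecut1: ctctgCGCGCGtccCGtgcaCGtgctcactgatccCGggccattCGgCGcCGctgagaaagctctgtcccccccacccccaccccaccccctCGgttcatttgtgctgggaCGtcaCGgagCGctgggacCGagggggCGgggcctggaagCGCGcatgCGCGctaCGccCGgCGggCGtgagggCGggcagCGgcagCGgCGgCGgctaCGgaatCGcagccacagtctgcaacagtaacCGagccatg
Scn4b: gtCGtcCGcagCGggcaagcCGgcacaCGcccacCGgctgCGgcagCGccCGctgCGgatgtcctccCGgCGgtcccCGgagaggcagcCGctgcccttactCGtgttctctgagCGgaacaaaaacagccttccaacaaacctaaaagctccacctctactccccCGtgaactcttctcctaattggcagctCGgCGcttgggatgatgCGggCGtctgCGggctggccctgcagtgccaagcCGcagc
Adcy5: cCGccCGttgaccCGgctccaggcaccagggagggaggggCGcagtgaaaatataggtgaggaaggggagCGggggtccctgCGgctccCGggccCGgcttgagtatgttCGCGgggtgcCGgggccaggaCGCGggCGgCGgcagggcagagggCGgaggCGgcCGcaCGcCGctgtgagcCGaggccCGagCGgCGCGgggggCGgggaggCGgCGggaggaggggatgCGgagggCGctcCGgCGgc
In this order they hold 8, 19, 31, 23 and 32 CG dinucleotides. RefSeq promoters were matched for 111 of the 165 risen and 34 of the 50 fallen genes. Each runs from 250 bases before to 50 after the start, and only the 250 before it were counted. The median number of CG was 7 over 166 promoters of risen genes, 16 over 47 of fallen genes and 6 over all 32851. At least 10 CG were found in 73 of 166, 33 of 47 (70.2%) and 37.8% of them. The full cyclic AMP response element TGACGTCA, which reads the same on both strands and holds 1 CG, was in 1.2% of promoters of risen genes, in none of 47 of fallen genes and in 1.55% of all. These counts describe the letters of the reference and were not tested. Promoters of *Wt1*, *Hoxc5*, *Adora2a* and *Penk* were not matched.

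The other fallen genes above 1 CPM were of mixed kind. *Slc5a5*, the sodium iodide symporter, was at 8.89, 11.2 and 13.3 CPM in LacQ140_2M and 13.4, 16.99 and 19.5 CPM in LacQ140, a log2 fold change of -0.58 ± 0.09 (adjusted p = 1.5e-05). *Crnde*, a noncoding RNA of neural differentiation, had one of -0.99 ± 0.14 (adjusted p = 5.1e-06), and no LacQ140_2M library of either gene reached the lowest LacQ140 library. *Kazald1* had a log2 fold change of -0.51 ± 0.10 (adjusted p = 0.00095), and *Sfmbt2*, a Polycomb-associated gene, one of -0.49 ± 0.10 (adjusted p = 0.0017). *Gng4*, a G protein γ subunit, had -0.39 ± 0.08 and *Zfp92* -0.49 ± 0.10 (adjusted p = 0.0054 and 0.0016). Some called genes rested on 1 library. *Hcrt*, the orexin precursor of hypothalamic neurons, was at 19.3 CPM in LacQ140 male 1 and at most 0.136 CPM in the other LacQ140 libraries, and *Pmch*, another hypothalamic peptide gene, at 85.1 CPM in the same library. Their fitted log2 fold changes were -4.61 ± 0.86 and -3.92 ± 0.75, and without the 4 libraries -0.10 and -1.13, neither called. *Cd8a*, *Trbc1*, *Prf1* and *Ccl5*, all of T and NK cells (*Trbc1* has a near-identical copy, *Trbc2*, with which it may share reads), were called as risen with male 5 at 5.58, 2.68, 1.148 and 12.6 CPM, and 7 of the 12 genes of that list were called with all libraries and 0 without the 4. *Bpifa1*, a gene of airway epithelium, was at 7.15 CPM in LacQ140_2M male 2 and at 0 in the other 18 libraries. *Cd8a*, *Trbc1*, *Prf1*, *Ccl5*, *Bpifa1* and *Pmch* were chosen after their values had been seen. Of the expressed genes named here with a call, *Pde10a*, *Cacnb2*, *Ddit4l*, *Gng4*, *Snrnp48*, *Hlf*, *Htr2a* and *Hvcn1* lost it without the 4 libraries, with log2 fold changes of 0.34, 0.28, 0.40, -0.36, -0.30, 0.26, 0.56 and 0.36. For *Hlf* this was the bound of 20% on the change and not the adjusted p.

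Whether genes dysregulated by m*Htt* moved was read from 2 lists. The first, called the multi-model list, holds the genes that the study took from earlier work as a signature of several HD mouse models. Its behaviour in LacQ140 mice was known when it was taken up here, and it is not treated as independent evidence. Of the 195 genes that are lower in HD models 57 rose (29.2%, against 0.466% of all genes) and none fell, 186 had a log2 fold change above 0, and the median was 0.24. Of the 71 genes that are higher in HD models 7 fell (9.86%, against 0.141% of all genes) and none rose, 62 were below 0, and the median was -0.14. In LacQ140 against WT + IPTG the same genes had medians of -0.82 and 0.75 at 12 months, a contrast that shares the LacQ140 libraries. For lowering from conception the medians were 0.28 and -0.26, and for lowering from 8 months 0.13 and -0.02, also against the same LacQ140 libraries.

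Mouse by mouse, the level of the list was read as the median over its genes above 1 CPM of the difference in log2(CPM + 0.1) from the mean of the LacQ140 group, so that LacQ140 mice centre near 0 by construction. For the 176 genes lower in HD models this position had a lowest, median and highest value of -0.00895, 0.261 and 0.341 in LacQ140_2M, -0.114, 0.0184 and 0.0904 in LacQ140, and 0.620, 0.809 and 0.911 in WT + IPTG. Of the LacQ140_2M mice, 9 lay above every LacQ140 mouse, the lowest being female 4, and no LacQ140_2M mouse reached the lowest WT + IPTG mouse. For the 66 genes higher in HD models the values were -0.193, -0.140 and -0.108 in LacQ140_2M and -0.0863, 0.00855 and 0.0703 in LacQ140, without overlap, while WT + IPTG mice lay between -0.874 and -0.629.

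**Figure D4:**
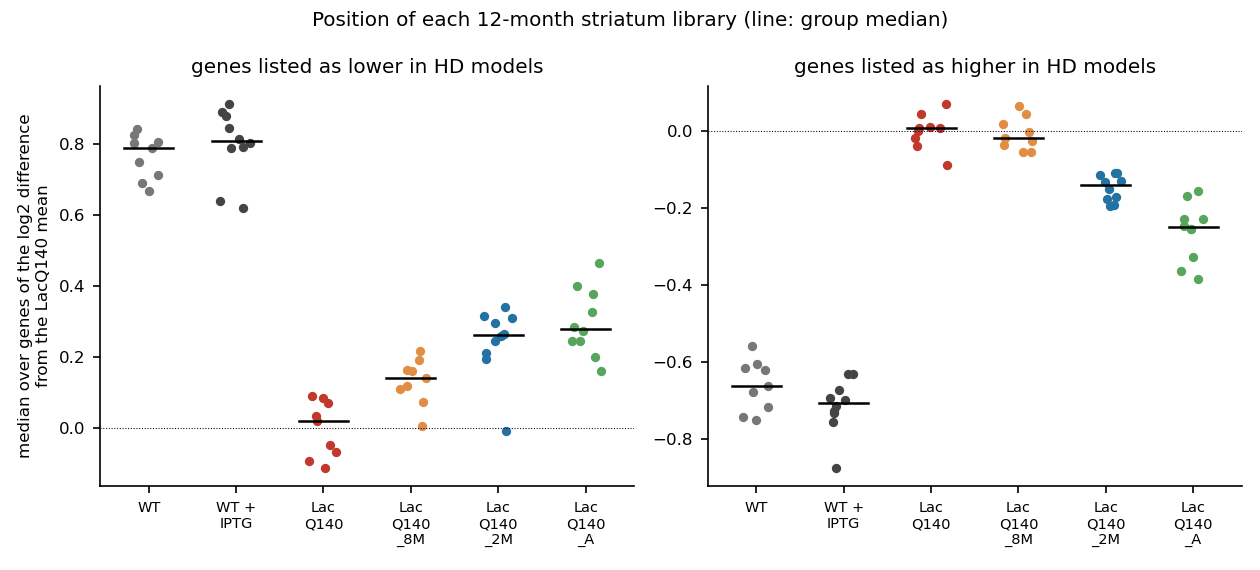
Position of each mouse of the 12-month striatum on the multi-model list: each point is the median over 176 genes lower (one panel) or 66 genes higher (other panel) in HD models of the difference in log2(CPM + 0.1) from the LacQ140 mean, and lines are group medians. LacQ140_2M mice lie between the LacQ140 and the WT + IPTG mice in both panels, with 1 LacQ140_2M mouse inside the LacQ140 range for the genes lower in HD models.

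The second list, the 6-month LacQ140 signature, was taken from 6-month mice, which share no library with the 12-month comparison. Of 1335 genes that were lower in 6-month LacQ140 than in WT + IPTG and not called for IPTG, 63 rose at 12 months after lowering (4.72%) and none fell. Their median log2 fold change was 0.05 at 12 months and 0.21 in the 6-month lowering comparison, which uses the same 6-month LacQ140 libraries as the list. Of 1387 genes that were higher, 14 fell (1.01%) and 3 rose, with medians of -0.02 and -0.21. Over all genes tested 0.466% rose and 0.141% fell. In the 12-month LacQ140 mice against WT + IPTG the medians of the lists were -0.33 and 0.32. Mouse by mouse, the groups overlapped on this signature. On the 1055 lower genes above 1 CPM the position had a lowest, median and highest value of -0.000293, 0.0434 and 0.102 in LacQ140_2M, -0.140, 0.0112 and 0.0800 in LacQ140 and 0.197, 0.302 and 0.383 in WT + IPTG. On the 1075 higher genes the values were -0.0758, -0.00295 and 0.0570 in LacQ140_2M, -0.0915, -0.0164 and 0.120 in LacQ140 and -0.320, -0.285 and -0.186 in WT + IPTG.

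The same lowering was sampled at 6 months in 10 LacQ140_2M and 10 LacQ140 mice, after 4 months without IPTG, so that the effect at the 2 ages can be compared in separate mice. In an interaction test over 37391 genes, 9 genes (0.0241%) had an effect that differed between the ages. *Wt1* had -2.97 ± 0.29 at 6 months and -0.98 ± 0.12 at 12 months, a difference of 1.98 ± 0.34 (adjusted p = 0.00068). Its LacQ140_2M and LacQ140 means were 0.0748 and 0.605 CPM at 6 months and 2.39 and 4.78 CPM at 12 months. *Krt9*, a keratin gene, was called as risen at 6 months (0.63 ± 0.10) and had -0.16 ± 0.08 at 12 months, a difference of -0.79 ± 0.13 (adjusted p = 0.00068). *Clspn*, a replication checkpoint gene, had 0.86 ± 0.10 and 0.19 ± 0.10 (difference -0.67 ± 0.15, adjusted p = 0.045) and *Serpinb1b*, a protease inhibitor, 0.51 ± 0.11 and -0.28 ± 0.11 (difference -0.79 ± 0.16, adjusted p = 0.01). Of the remaining genes, *Emx2*, *Snrnp48*, *Tdrkh* and *C130021I20Rik* had lower values at 12 months, with differences of -0.57 ± 0.12, -0.51 ± 0.09, -0.32 ± 0.06 and -3.58 ± 0.57. The last of the 9 was *Hcrt*, with the largest difference in size among them (-6.29 ± 1.35), which rests on LacQ140 male 1. Leaving out LacQ140 male 2 or male 3 raised the count from 9 to 22 or 16, and without the 4 libraries that stood apart it was 4.

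No age difference passed the test for 3 spiny neuron genes: *Scn4b* had a log2 fold change of 0.58 ± 0.08 at 6 and 0.60 ± 0.06 at 12 months (difference 0.02 ± 0.10, adjusted p = 1), *Penk* 0.45 ± 0.05 and 0.42 ± 0.07 (difference -0.03 ± 0.10, adjusted p = 1) and *Adcy5* 0.30 ± 0.08 and 0.34 ± 0.06 (difference 0.04 ± 0.10, adjusted p = 1). *Drd2* was called at 6 months (0.43 ± 0.08) and not at 12 (0.20 ± 0.07), but the difference of -0.22 ± 0.11 did not pass the test (adjusted p = 0.68). *Ddit4l* had 1.02 ± 0.10 and 0.39 ± 0.09, a difference of -0.62 ± 0.14 (adjusted p = 0.066). *Hoxc4* was near 0 in 6-month LacQ140 mice, at 0.0112 CPM on average against 1.56 CPM at 12 months, and the test of the age difference gave an adjusted p of 0.97. *Lmx1b* had -0.20 ± 0.43 and -2.75 ± 0.28, a difference of -2.55 ± 0.59 (adjusted p = 0.082).

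**Figure D5:**
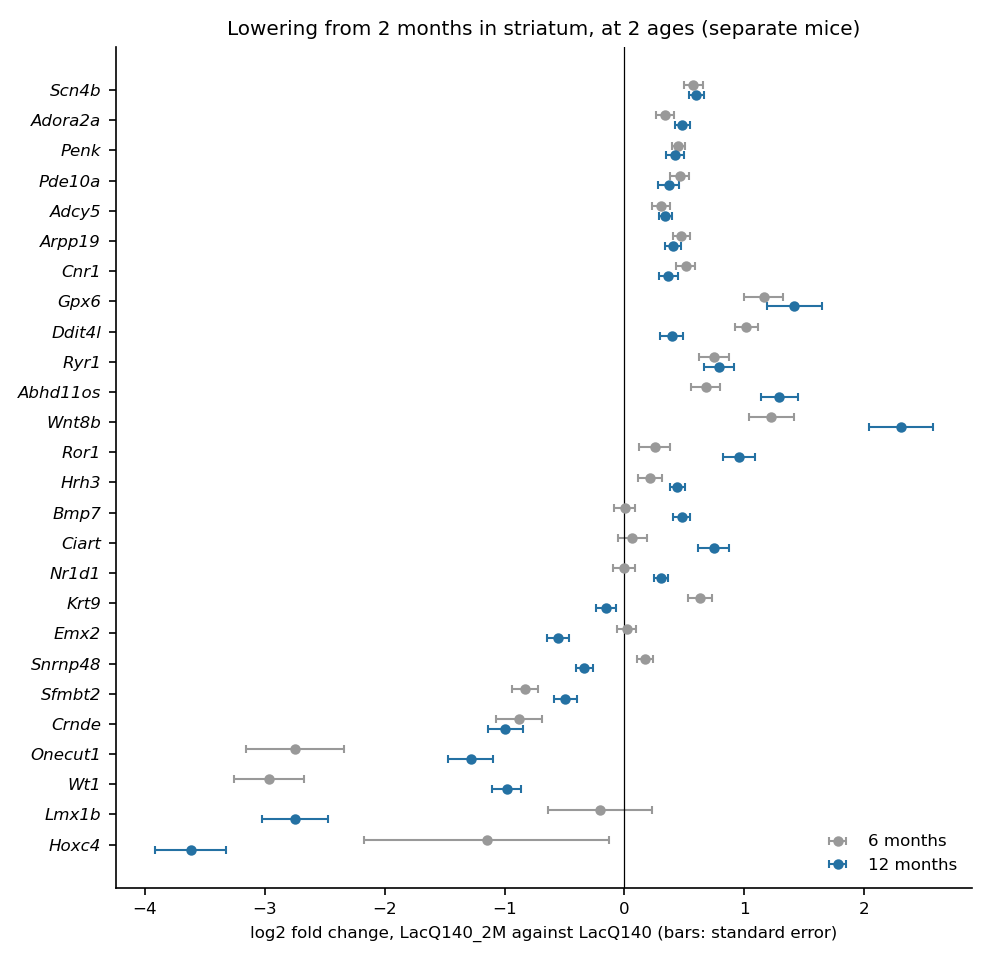
Log2 fold change of LacQ140_2M against LacQ140 (horizontal axis) at 6 months (grey) and at 12 months (blue) for 26 genes, with bars of 1 SE. Each gene has its own row, the vertical line marks 0, and no mouse is shared between the ages. *Scn4b*, *Penk* and *Adcy5* lie close to the line, *Wt1* lies farther from 0 at 6 months, and *Hoxc4* and *Lmx1b* lie farther from 0 at 12 months.

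LacQ140_2M mice were off IPTG when sampled and LacQ140 mice were on it, so the comparison also holds any effect of IPTG. In WT mice IPTG changed 77 genes (0.218%). The WT groups share no library with the lowering, and 1 gene, *Hvcn1*, was called in both (without the 4 libraries that stood apart not in the lowering, 0.36 ± 0.10, adjusted p = 0.083), which is 0.465% of the 215 and 1.30% of the 77. The median log2 fold change of IPTG in WT mice was -0.03 over the 165 risen and -0.07 over the 50 fallen genes. Over the lower and higher genes of the 6-month signature it was 0.07 and -0.09, larger in size than their medians for lowering, and over those of the multi-model list 0.01 and -0.05. When the effect of IPTG withdrawal in the WT groups was taken off the lowering effect in the fit, 106 genes were called (0.3%), 87 higher and 19 lower. Of the 215 genes called without the correction, 55 were called in it, a contrast that holds the same 19 libraries. In this contrast *Scn4b* had 0.63 ± 0.09 (adjusted p = 3.4e-05), and *Adora2a* 0.47 ± 0.09 (adjusted p = 0.0036). *Adcy5* was called with 0.42 ± 0.08 (adjusted p = 0.0026) and *Wnt8b* with 1.90 ± 0.32 (adjusted p = 0.00096), as were *Inppl1*, a lipid phosphatase gene, with 0.49 ± 0.07 (adjusted p = 3.4e-05), and *Emx2os* with -0.81 ± 0.17 (adjusted p = 0.014). *Wt1*, *Onecut1* and *Hoxc4* had -1.10 ± 0.54, -3.01 ± 1.06 and -4.75 ± 1.70 and were not called, with adjusted p of 0.51, 0.25 and 0.26. Their levels in the WT groups were near 0, and the SE of such a fold change is wide. The count of 106 fell to 66 without LacQ140 male 1, to 70 without the 4 libraries, to 53 and 62 without WT + IPTG females 2 and 4 and to 56 without WT female 2, and it rose to 170 without WT + IPTG male 5.

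Lowering from 2 months was also set against the other start times. Against LacQ140_A, repressed from conception, 18 genes differed (0.0509%), 11 higher and 7 lower in LacQ140_2M. *Wt1* was higher by 0.74 ± 0.14 (adjusted p = 0.0099) on the log2 scale (LacQ140_A 1.45 ± 0.396 CPM, LacQ140_2M 2.39 ± 0.691 CPM), and *Onecut1* by 1.24 ± 0.26 (adjusted p = 0.021). *Bahcc1* and *Asb18* were higher by 0.46 ± 0.08 and 0.45 ± 0.09 (adjusted p = 0.0015 and 0.013). *Trbc1*, a T cell gene, was higher by 3.22 ± 0.73 with male 5 in the group. *Scn4b*, *Adora2a* and *Penk* had log2 differences of 0.05 ± 0.06, 0.08 ± 0.06 and -0.07 ± 0.07 and were not called. The 18 genes became 10 without LacQ140_2M male 5, 9 and 11 without LacQ140_A female 1 and male 5, and 31 without LacQ140_A male 1. Against LacQ140_8M, repressed from 8 months, 33 genes differed (0.0933%), 16 higher and 17 lower. *Hoxc4* was lower, with -3.18 ± 0.32 (adjusted p = 2.7e-11), as were *Lmx1b* (-1.63 ± 0.33), *Wt1* (-0.94 ± 0.13), *Onecut1* (-1.31 ± 0.19) and *Emx2* (-0.41 ± 0.09), with adjusted p of 0.014, 2e-06, 4.9e-06 and 0.036. *Abhd11os*, *Hrk* and *Bmp2* were higher, with 0.67 ± 0.15, 0.40 ± 0.08 and 0.38 ± 0.08 (adjusted p = 0.036, 0.0067 and 0.037). *Scn4b* and *Adora2a* had 0.25 ± 0.06 (adjusted p = 0.097), and 0.28 ± 0.06 (adjusted p = 0.053), and were not called. Without LacQ140_8M female 1 the count was 21.

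Females and males were tested for a different effect of lowering, and no gene was called (0.0%): 2203 genes had an unadjusted p under 0.05 in edgeR, and DESeq2 also called 0. Within females (5 against 4 mice) 97 genes were called and within males (5 against 5) 160, and 204 of the 215 genes had the same direction in both. *Scn4b* had a log2 fold change of 0.51 ± 0.08 in females and 0.67 ± 0.08 in males. *Hoxc4* had -3.66 ± 0.32 and -3.77 ± 0.44, and *Gpx6* 1.45 ± 0.27 and 1.32 ± 0.28. LacQ140_2M male 5 and LacQ140 males 1 and 2 stood apart in markers of other tissue or cell types, as did LacQ140_2M female 4. Without these 4 libraries 10 genes had an effect that differed between the sexes, against 2 without LacQ140 male 1 alone.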

How the data were processed

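Striatal RNA of 12-month-old mice went through paired-end sequencing on a NovaSeq instrument. Per the files the authors deposited, values are expected counts (reads estimated for each gene, not whole, and not normalized); the program that made them, its use of strand and the annotation are not given in the sources used here, and the submitters' processing notes name GRCm38. Of 54532 gene identifiers 54495 were found in GENCODE vM21 (GRCm38), which gave names and positions. Of the nonzero values 31.29% were not whole, and all were rounded. Samples were grouped by their labels. The authors marked the 12-month table as unswapped, and what this refers to is not given in the sources used here, so that its columns were taken by their names, which are those in the labels. The labelled sex matched *Xist* and 4 Y-linked genes in 57 of 57 libraries, which does not test the treatment groups. Levels are CPM with TMM factors, and intervals and SE cover the spread between mice only, each library being 1 mouse.

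Tests were edgeR 4.0.16 quasi-likelihood F-tests in R 4.3.3 over the 57 libraries of 12-month striatum, for genes with at least 1 count, with Benjamini-Hochberg adjustment over all of them. A gene was called at an adjusted p under 0.05 with a rise or fall of 20% or more. The SE is the log2 fold change divided by the square root of F. Contrasts were LacQ140_2M against LacQ140, the same less the effect of IPTG withdrawal in WT mice, against LacQ140_A and LacQ140_8M, by sex, and by age with the 6-month striatum in the fit. Lists are described by counts and medians. The scripts were checked on made-up counts with known changes. The columns of the study's own tables were not used for values, and the members of the multi-model list were taken from its supplement.

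Named genes were *Htt*, 7 genes that the study plots, the 8 risen and 8 fallen genes with the smallest p and the 4 of each with the largest change without overlap (called, mean of at least 1 CPM), the 3 smallest p and first 2 members of each list, and the 3 smallest p in each direction of each other contrast; the text gives those that a result turns on. The comparison, the lists and the rule were chosen with earlier results of these data known, and genes named outside the rule were chosen after their values had been seen.

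Among 81 pairs of libraries within the groups chi-square over its degrees of freedom was at least 8.50 (median 22.4), and no library was a copy of another. Alternatives were DESeq2 1.42.0 (test, or size factors in edgeR), the filterByExpr filter, sex, transcript length slope or replicate block in the model, fits without the groups not compared, no bound on the fold change and each library left out. The joint removal of 4 libraries, and leaving out libraries in the contrasts by age, sex, IPTG, LacQ140_A and LacQ140_8M, were chosen after seeing the data. Python 3.11.15, numpy 2.4.6 and pandas 2.3.3 were used for tables.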

Additional observations from a re-analysis of the deposited data

Results flagged for a closer look

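Of 194 groups of values checked with Dixon's test, 35 held a library far from the rest of its group. Chance alone gives about 1 in 20 for independent values that were not chosen by their outcome. The 35 cannot be set against that rate. Some of these genes and lists were chosen after their values had been seen, and many of the 35 come from the same library. LacQ140_2M female 4 was the lowest of its group in *Scn4b* (777 CPM, the others 920.2 to 1054), *Adora2a* (191 CPM, the others 248.3 to 308.7), *Adcy5* (792 CPM, the others 1025 to 1156), *Drd2* (146 CPM, the others 197 to 247.5), *Pdyn* (123 CPM, the others 167 to 212.4), *Ptpn7* (3.87 CPM, the others 5.94 to 8.004), *Kcnip2* (208 CPM, the others 269.8 to 319), *Hpca* (1094 CPM, the others 1427 to 1708), *Rasd2* (578 CPM, the others 754 to 862), *Ptpn5* (547 CPM, the others 651 to 726) and *Gpr6* (50.3 CPM, the others 67.6 to 83.1). The same library was the highest in *Pmch* (3.50 CPM, the others 0.164 to 0.780) and *Nrn1* (26.04 CPM, the others 2.51 to 8.45), and in the summed thalamic and hypothalamic neuron markers (479.8 and 29.2 CPM), while its sum of spiny neuron markers was 4396 CPM. LacQ140_2M male 5 stood above its group in *Il2rb* (11.5 CPM, the others 0.540 to 1.07), *Cd8a* (5.58 CPM, the others 0 to 0.144), *Trbc1* (2.68 CPM, the others 0 to 0.0804), *Prf1* (1.148 CPM, the others 0 to 0.0239) and *Ccl5* (12.6 CPM, the others 0.0676 to 0.318), and in the sum over T and NK cell genes (39.7 CPM). LacQ140 male 1 stood above its group in *Hcrt* (19.3 CPM) and *Pmch* (85.1 CPM) and in the hypothalamic neuron sum (118.6 CPM). LacQ140 male 2 stood apart in *Nrn1* (37.4 CPM, the others 9.04 to 20.99) and *Tac1* (175 CPM, the others 209 to 241), and in the cortical glutamatergic neuron sum (520.1 CPM). The remaining values that stood apart were *Hrh3* in LacQ140 male 3 (157 CPM, the others 108.5 to 132), *Gpx6* in LacQ140_2M female 2 (3.37 CPM, the others 1.31 to 2.41), *Hoxc4* in LacQ140_2M female 5 (0.287 CPM, the others 0.0225 to 0.158), *Bpifa1* in LacQ140_2M male 2 (7.15 CPM, the others 0), *Vgll2* in LacQ140_2M female 1 (0.0955 CPM, the others 0 to 0.0451), the sum of choroid plexus and ependyma markers in LacQ140_2M female 5 (211.6 CPM, the others 58.7 to 125.01) and the sum of pituitary markers in LacQ140_2M female 3 (4.38 CPM, the others 1.85 to 2.97).

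The effect of lowering differed between 12 and 6 months by edgeR's interaction test with Benjamini-Hochberg adjustment in 9 genes. The effect at 12 months less that at 6 months was, on the log2 scale, -3.58 for *C130021I20Rik* (adjusted p = 0.00022), -0.79 for *Krt9* (adjusted p = 0.00068), 1.98 for *Wt1* (adjusted p = 0.00068), -0.51 for *Snrnp48* (adjusted p = 0.0048), -0.79 for *Serpinb1b* (adjusted p = 0.01), -0.32 for *Tdrkh* (adjusted p = 0.022), -0.57 for *Emx2* (adjusted p = 0.036), -6.29 for *Hcrt* (adjusted p = 0.038) and -0.67 for *Clspn* (adjusted p = 0.045).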

How the results depend on the processing

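The count of 215 called genes, of 80 called genes of the 6-month signature and of 64 of the multi-model list stayed within 1.5 times under every alternative run, and leaving out 1 library gave 181 to 249, 72 to 92 and 57 to 68. For the IPTG-corrected contrast leaving out 1 library gave 53 to 170, for LacQ140_A 9 to 31, for LacQ140_8M 21 to 47, for age 6 to 22 and for sex 0 to 2. The age count of 9 became 24 with DESeq2 and 45 with filterByExpr, which tests fewer genes. The LacQ140_A count of 18 became 11 with filterByExpr and 5 with only the groups compared, where the LacQ140_8M count of 33 became 21. The IPTG-corrected count of 106 became 174 with the length slope. Without the 4 libraries the IPTG-corrected, age and sex counts were 70, 4 and 10. The causes were not tested.

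A replicate block on sex and number gave 212, 83, 64, 80, 19 and 30 genes for the lowering, the 6-month signature, the multi-model list, the IPTG-corrected, LacQ140_A and LacQ140_8M contrasts. Equal numbers did not pair the mice: over 9 pairs the correlations of deviations lay between -0.21 and 0.39, and 3 libraries correlated best with their own number.

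Log2 fold changes changed sign with DESeq2 for *Hcrt* (0.15), *Cd8a* (-0.25), *Trbc1* (-0.0304) and *Ccl5* (-0.31). Leaving out 1 library gave log2 fold changes of -4.86 to 0.0912 for *Hcrt*, -0.23 to 3.06 for *Cd8a*, -0.35 to 2.83 for *Ccl5*, 0 to 7.92 for *Bpifa1* and -0.11 to 0.00149 for *Asb18*, which was not called. The sign changed in these without LacQ140 male 1 (*Hcrt*), LacQ140_2M male 5 (*Cd8a*, *Ccl5*), LacQ140_2M male 2 (*Bpifa1*, to 0) and LacQ140 male 3 (*Asb18*). Without the 4 libraries *Cd8a*, *Trbc1* and *Ccl5* had -0.49, -0.36 and -0.44. Depth limits genes under 1 CPM most: called changes there rest on few reads per mouse.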
